A study of Homo sapiens
Rattus norvegicus and Homo sapiens with 10 samples.

Results

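A set of 9 genes of epithelial identity was followed in U251N, an established human glioblastoma line, grown in culture and in rat brain. They were taken from the deposited table by symbol, as 9 of its 62754 genes. They comprise the ETS factors EHF and ELF3, the zinc-finger factors KLF5, KLF4 and SP6, the factors GRHL2 and OVOL2, and as targets SCNN1A and EPCAM. The 9 genes were chosen by their levels in these libraries, culture, tumours and controls included. Levels and ratios below therefore describe them, and the tests printed beside them are not independent evidence.

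Per the labels, U251N cells were implanted in the brains of adult female athymic RNU/RNU rats. Such rats lack mature T cells and keep other immune cells. The 3 primary tumours were not ablated, and the 3 recurrent tumours came back after LITT (laser interstitial thermal therapy), a heat ablation by laser fibre guided by magnetic resonance imaging. Of the 3 control brains, replicate 1 was a failed graft and replicates 2 and 3 were procedural controls, and 1 untreated culture of U251N was an outside reference. Whether every library had a rat of its own is not stated in the labels, so the p-values measure the spread between these samples, which may be technical.

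Each tumour library had between 20321590 and 39714714 estimated counts, each control between 1358753 and 4158124, and the culture 65058642. Levels are given as CPM, the count scaled to the library total. The reads assigned to the human graft were 42.5% to 64.4% in primary and 29.4% to 42.7% in recurrent tumours. The 10 fixed markers of the line (among them GFAP, NES, SOX2 and VIM) summed to 7797 to 9478 CPM in the tumours and to 9769 CPM in the culture. OLIG2, an oligodendrocyte lineage factor in that list, had 3 counts in primary replicate 3 and none in the other libraries. Control replicate 3 went against its tumour-free label, with 4.9% graft reads and 6414 CPM of these markers, against 99.4 and 509 CPM in control replicates 1 and 2. Those other 2 controls held only 99952 and 171681 counts outside structural small RNAs and mitochondrial genes, so that their CPM move with the denominator. The RNA integrity number was 6.1 in control replicate 2 and 7.8 to 9.2 in the other libraries. Primary replicate 1, recurrent replicate 1 and control replicates 1 and 2 also stood apart, as the libraries with counts of EPCAM.

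Epithelial cells form sheets joined by junctions, and their identity is kept by factors that open and activate junction and transport genes. EHF and ELF3 are ETS factors of epithelia, KLF5 and KLF4 act in the growing and the differentiating layers, and SP6 acts in tooth and skin. GRHL2 and OVOL2 maintain the epithelial state, and OVOL2 represses genes of the mesenchymal transition such as ZEB1. SCNN1A is the alpha subunit of the epithelial sodium channel, and EPCAM is an adhesion molecule of epithelial surfaces. Glioblastoma is a tumour of glial character, in which most of these genes are not identity genes.

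KLF4, KLF5 and SP6 bind DNA through 3 related zinc fingers at or near their carboxyl ends. The coding sequence of that stretch is shown because reads from such relatives could be mixed up in counting. The 150 bases were read from GENCODE release 29 transcripts on GRCh38, and capitals mark bases shared with KLF5 in the KLF4 line and shared with KLF4 in the KLF5 and SP6 lines. KLF4 and KLF5 shared 104 of 150 bases, with a longest identical run of 11, and SP6 and KLF4 shared 81, with a longest run of 8. The stretches lie in coding exons at chr9:107485754-107485903 (minus strand), chr13:73075731-73075880 (plus strand) and chr17:47847419-47847568 (minus strand).
KLF4: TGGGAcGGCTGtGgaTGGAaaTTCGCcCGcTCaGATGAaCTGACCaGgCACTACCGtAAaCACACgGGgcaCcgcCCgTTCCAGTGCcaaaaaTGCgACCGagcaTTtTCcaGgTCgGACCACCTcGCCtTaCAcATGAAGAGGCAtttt
KLF5: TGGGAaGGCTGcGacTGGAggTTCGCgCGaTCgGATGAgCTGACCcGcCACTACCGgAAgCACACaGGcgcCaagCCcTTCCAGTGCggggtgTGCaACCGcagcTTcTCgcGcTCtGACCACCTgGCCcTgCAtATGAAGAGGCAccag
SP6: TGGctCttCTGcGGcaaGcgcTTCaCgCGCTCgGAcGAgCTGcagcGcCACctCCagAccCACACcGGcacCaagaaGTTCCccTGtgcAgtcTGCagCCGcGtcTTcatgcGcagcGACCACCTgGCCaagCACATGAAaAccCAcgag

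Over whole transcripts, KLF4, KLF5 and EHF had no word of 31 bases in common with any other gene of the human annotation. Rat transcripts were not searched, so words shared with genes of the host were not examined. SP6 shared 0.964% of its words, GRHL2 0.491%, OVOL2 1.4%, SCNN1A 3.42% and EPCAM 3.77%. ELF3 shared 11.4%, and 611 of its 838 shared words lay in AL691482.3, a gene annotated inside it on the same strand (chromosome 1, 202011370 to 202015657). AL691482.3 had at most 1 count in any library, so few of the reads were assigned to it.

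**Figure D1:**
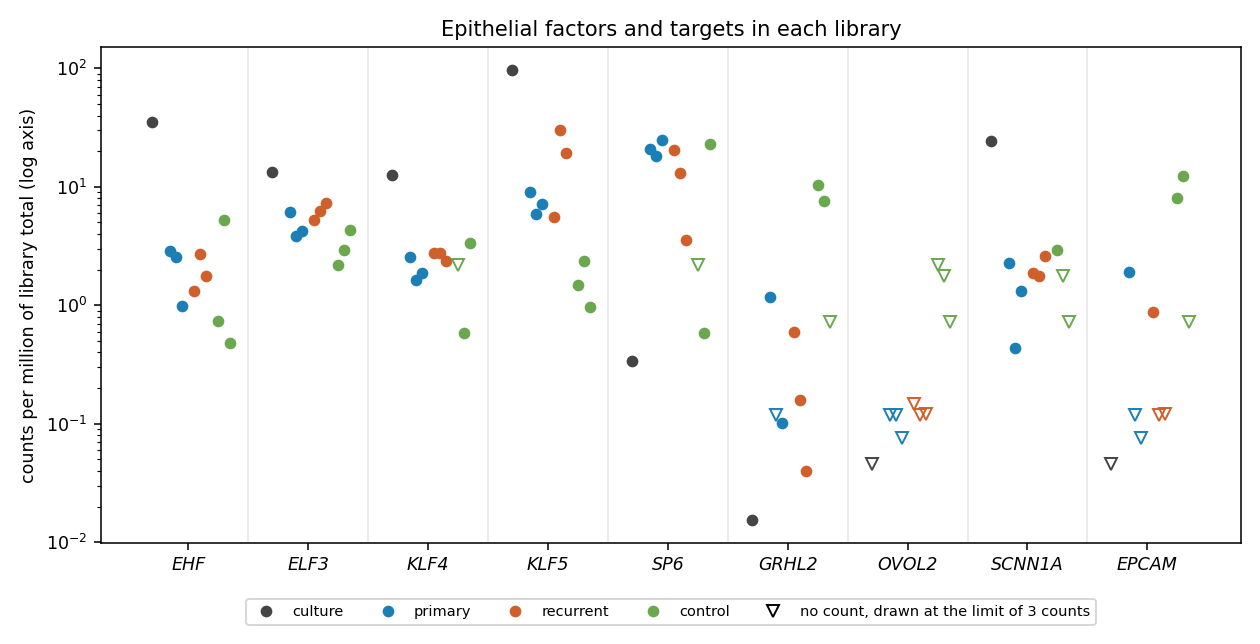
CPM (log axis) for the 9 genes in the culture (1 library), primary tumours (3), recurrent tumours (3) and controls (3), with 1 point per library and open triangles at the limit of 3 counts where a library had none. EHF, ELF3, KLF4, KLF5 and SCNN1A stood higher in the culture than in all 6 tumours, SP6 stood lower there, and OVOL2 had no count.

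In the culture, 4 of the 9 genes (EHF, SCNN1A, KLF5 and KLF4) stood at least 4-fold above the median of the 6 tumours, and 2 (SP6 and GRHL2) at least 4-fold below it. Over the 20956 genes with 10 or more counts in the culture or a tumour, 10.7% lay 4-fold above and 3.79% 4-fold below. Where 10 counts on the higher side were also required, a condition added after the values were seen, 9.51% lay above and the 9 genes still gave 4 and 2. The culture is 1 library, so no test is given, and intervals cover counting error of the culture only. The median log2 ratio of culture to tumours was 2.36 over the 7 of these genes with a ratio and 0.14 over all genes with one. In bulk RNA, fewer cells expressing a gene and less RNA per cell cannot be told apart.

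EHF (ENSG00000135373.13, chromosome 11, 34621093 to 34661057, plus strand) stood at 35.4 CPM in the culture. The primary tumours stood at 2.88, 2.57 and 0.982 CPM, the recurrent ones at 1.33, 2.69 and 1.76 CPM. The culture was 16.3 times the tumour median (95% Poisson interval 15.7 to 17.0), and the tumour groups overlapped. In the controls EHF had 1, 9 and 2 counts, or 0.736, 5.29 and 0.481 CPM, so that control replicate 2 exceeded every tumour. With structural and mitochondrial counts left out of the totals, EHF stood at 10, 52.4 and 0.715 CPM in the controls and at 1.06 to 3.21 CPM in the tumours.

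ELF3 (ENSG00000163435.16, chromosome 1, 202007945 to 202017188, plus strand), the other ETS factor, stood at 13.3 CPM in the culture. Its levels were 6.15, 3.87 and 4.26 CPM in the primary group and 5.22, 6.21 and 7.34 CPM in the recurrent group. The culture lay above all 6 tumours, by 1.82 to 3.44 times, and at 2.35 times the median (2.19 to 2.51) ELF3 fell short of the 4-fold mark. KLF4, at 5.14 times, was the nearest gene beyond that mark. The controls held 2.21, 2.94 and 4.33 CPM of ELF3, from 3, 5 and 18 counts, and 30.0, 29.1 and 6.43 CPM on totals without structural and mitochondrial counts, where tumours held 4.58 to 8.31 CPM.

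KLF5 (ENSG00000102554.14, chromosome 13, 73054976 to 73077542, plus strand) was the most abundant of the 9 genes in the culture, at 97.1 CPM. Primary tumours held 8.98, 5.89 and 7.15 CPM, and recurrent tumours 5.61, 30.0 and 19.2 CPM. Recurrent replicates 2 and 3 thus lay above every primary tumour and recurrent replicate 1 below all of them. The culture was 12.04 times the tumour median (11.7 to 12.3), and from 3.23 to 17.3 times single tumours. The controls had 2, 4 and 4 counts, or 0.962 to 2.35 CPM, below all 6 tumours on library totals. On totals without structural and mitochondrial counts the controls stood at 20.0, 23.3 and 1.43 CPM and the tumours at 6.55 to 32.7 CPM, and the groups overlapped.

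KLF4 (ENSG00000136826.15, chromosome 9, 107484852 to 107490482, minus strand) stood at 12.6 CPM in the culture. It was among the most even of the genes across tumours, with primary values of 2.56, 1.62 and 1.89 CPM and recurrent values of 2.76, 2.77 and 2.37 CPM. The culture was 5.14 times the median (4.79 to 5.50) and at least 4.57 times each tumour. Control replicate 1 had no count of KLF4 and control replicate 2 had 1. Control replicate 3, the control with the most graft reads, had 14 (3.37 CPM).

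SP6 (ENSG00000189120.5, chromosome 17, 47844908 to 47855874, minus strand) went the other way. The culture, the deepest library, had 22 counts (0.338 CPM, interval 0.212 to 0.512). Primary tumours held 21.0, 18.1 and 24.9 CPM, and recurrent tumours 20.5, 13.0 and 3.57 CPM. The tumour median was 57.0 times the culture (37.7 to 91.0), and the lowest tumour, recurrent replicate 3, was 10.6 times it. Control replicates 1 and 2 had 0 and 1 counts, whereas control replicate 3 had 95 counts. That was 22.8 CPM of the library total, within the primary range, and 34.0 CPM without structural and mitochondrial counts, above the primary range of 21.4 to 26.8 CPM on that scale.

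GRHL2 (ENSG00000083307.12, chromosome 8, 101492432 to 101669726, plus strand) had 1 count in the culture. Its counts were 30, 0 and 4 in primary tumours, 12, 4 and 1 in recurrent tumours and 14, 13 and 0 in controls. With 1 count, the ratio of culture to tumour median was 0.119 with a counting interval from 0.00301 to 0.662. Primary replicate 1 and recurrent replicate 1 were the only tumours with 10 or more counts, and without both GRHL2 no longer entered the comparison, leaving SP6 as the 1 lower gene.

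OVOL2 (ENSG00000125850.11, chromosome 20, 17956979 to 18059188, minus strand) had no count in any of the 10 libraries. Up to 3 counts are allowed by a count of 0, or 0.0461 CPM for the culture, from 0.0755 to 0.148 CPM for the tumours and from 0.721 to 2.21 CPM for the controls. Without molecular identifiers reads are not independent molecules, so intervals and limits cover counting error alone.

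Of the target genes, SCNN1A (ENSG00000111319.13, chromosome 12, 6346843 to 6377730, minus strand) followed EHF and KLF5 in direction. It stood at 24.2 CPM in the culture, at 2.28, 0.434 and 1.31 CPM in primary tumours and at 1.87, 1.78 and 2.61 CPM in recurrent tumours. The culture was 13.3 times the median (12.6 to 13.9) and at least 9.29 times each tumour. Primary replicate 2, with 11 counts, was the lowest. Only control replicate 1 had counts of SCNN1A, at 4.

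EPCAM (ENSG00000119888.11, chromosome 2, 47345158 to 47387601, plus strand) had no count in the culture. It had 48 counts in primary replicate 1, 18 in recurrent replicate 1, 11 in control replicate 1 and 21 in control replicate 2, and none in the other 6 libraries. Since 4 of 6 tumours had none, no ratio to the culture is given.

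**Figure D2:**
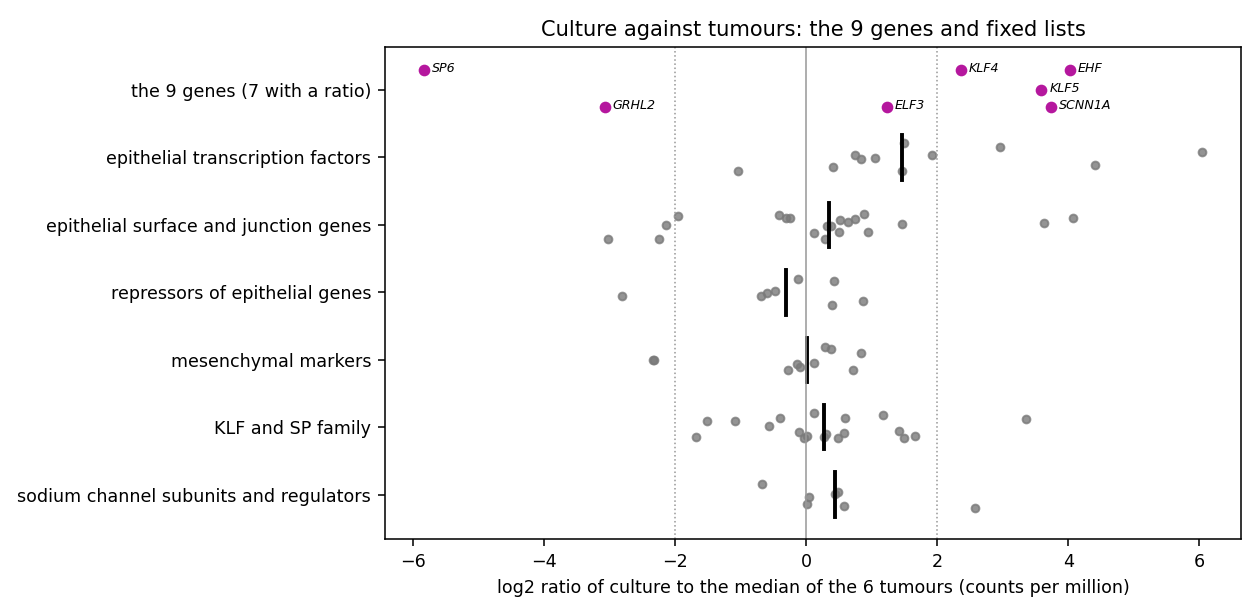
Log2 ratio of the culture to the median of the 6 tumours for 7 of the 9 genes (named points) and for the genes of 6 fixed lists (grey points, black bars are list medians), with dotted lines at 4-fold. EHF, SCNN1A, KLF5 and KLF4 lie right of the upper line and SP6 and GRHL2 left of the lower one, while repressors of epithelial genes lie mostly between the lines.

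Per kilobase of the longest annotated transcript, the culture ranked KLF5 first at 27.2 CPM per kb, then EHF (11.2), SCNN1A (6.96), KLF4 (4.497), ELF3 (2.67) and SP6 (0.0879). In the tumours SP6 ranked first, with a median of 5.01 CPM per kb (range 0.927 to 6.46), ahead of KLF5 at 2.26 (1.57 to 8.42). These ranges overlapped. The next levels were 1.14 for ELF3 (0.775 to 1.47), 0.876 for KLF4 (0.576 to 0.984), 0.688 for EHF (0.312 to 0.913) and 0.524 for SCNN1A (0.125 to 0.749), and each range overlapped that of the next. With the median transcript length in place of the longest, SP6 ranked 3 in the tumours, after KLF5 and ELF3.

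Other epithelial factors and junction genes showed how far the pattern reached. Of 20 other epithelial transcription factors, 13 had enough counts, of which 3 were 4-fold higher in the culture and 0 lower (median log2 ratio 1.46 over 11 with a ratio). These were ESRP1, a splicing regulator of epithelia (1.32 against a tumour median of 0.0200 CPM), BARX2, a homeobox factor (1.52 against 0.0719 CPM), and SPDEF, an ETS factor of secretory cells (0.154 against 0.0197 CPM). All 3 tumour medians lay below the limit of 3 counts in a tumour library (0.0755 to 0.148 CPM). SPDEF had 10 counts in the culture. GRHL1, a relative of GRHL2, stood at 3.12 CPM in the culture and at a tumour median of 1.498 CPM. The sister genes OVOL1 and ELF5 had 2 and 3 counts in the culture, and GRHL3 stood at a log2 ratio of -1.03. The factors TFAP2A and TFAP2C stood at log2 ratios of 0.75 and 0.41.

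Of 28 epithelial surface and junction genes, 24 had enough counts, and 5 were 4-fold higher and 4 lower in the culture (median log2 ratio 0.35 over 20 with a ratio). TJP3, a tight-junction scaffold, stood at 2.66 against 0.157 CPM, and CLDN7, a claudin that binds EPCAM, at 0.246 against 0.0198 CPM. The other 3, PRSS8, ST14 and MARVELD2, had 14, 1 and 8 counts in the culture against a tumour median of 0, and with 10 counts required on the higher side 3 genes remained called. Single tumours exceeded the culture for ST14 (up to 1.38 against 0.0154 CPM) and MARVELD2 (up to 0.827 against 0.123 CPM). Lower in the culture were KRT19, a keratin of simple epithelia (1.44 against 6.38 CPM), and PROM2, a membrane protein (0.108 against 0.873 CPM). AP1M2, an epithelial adaptor subunit (0.123 against 0.585 CPM), was lower as well, and so was MAL2. MAL2 had no count in the culture, against a tumour median of only 0.0198 CPM. CDH1, the epithelial cadherin, was low in both, at 0.400 CPM in the culture and 0 to 2.09 CPM in tumours.

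Of 11 repressors of epithelial genes, 8 had enough counts, and SNAI3, TWIST2 and FOXC2 had at most 6 counts in any library. Of the 8, 0 were 4-fold higher and 1 lower in the culture (median log2 ratio -0.30). The lower gene was SNAI2, a zinc-finger repressor, at 5.96 CPM in the culture against a tumour median of 42.0 CPM (25.1 to 54.9). ZEB1 stood at 92.3 CPM in the culture and 68.5 CPM in the tumours, and ZEB2 at 103 and 165 CPM. The mesenchymal filament VIM stood at 4050 and 3316 CPM and the cadherin CDH2 at 219 and 242 CPM. Of 10 such markers the 2 genes of contractile filaments, TAGLN and ACTA2, were 4-fold lower in the culture. Their log2 ratios were -2.33 for both.

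Within the KLF and SP family, 19 of 23 other members had enough counts. Only SP8, a developmental factor, passed the mark (3.64 against 0.355 CPM), and the list's median log2 ratio was 0.27. KLF6 stood at 42.2 CPM in the culture and 41.8 CPM in the tumours, KLF9 at 53.9 and 17.0 CPM, and SP5 at 0.292 and 0.829 CPM. Among sodium channel genes SCNN1D, the delta subunit, stood at 3.21 CPM in the culture against a tumour median of 0.536 CPM. The beta subunit SCNN1B stood near 0.18 CPM in both, and the gamma subunit SCNN1G had no count in any library. No gene of 7 EPCAM partners and proteases passed 4-fold, with a median log2 ratio of -0.12.

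Recurrent and primary tumours were compared to ask whether regrowth after ablation went with another level of these genes. None of the 6 genes that passed the filter on low counts was called by edgeR's quasi-likelihood test at an adjusted p under 0.05, against 0.00628% of the 15928 genes tested (1 gene). At an unadjusted p under 0.05 edgeR had KLF5 alone of the 6, and 1335 of the 15928 genes tested, DESeq2 called 0 of the 9 genes, and GRHL2, OVOL2 and EPCAM had too few counts to enter edgeR. The median log2 change was 0.38 over the 6 and -0.01 over all genes tested. The groups of all 6 overlapped, where 14.2% of the genes tested had groups that did not (6.47% higher and 7.75% lower).

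KLF5 had the largest log2 change of the 6, 1.29 (SE 0.45, edgeR adjusted p = 0.536), with 7.34 ± 1.56 CPM before and 18.3 ± 12.2 CPM after ablation (SD, n = 3 each). It rested on recurrent replicates 2 and 3. Without recurrent replicate 1 the change was 1.71 and edgeR called it (adjusted p = 0.0409), and without recurrent replicate 2 it was 0.76 (adjusted p = 0.862). Those 2 tumours also carry another prefix in their library names (NL, against IL in the other 4), whose meaning the labels do not give. Among the tumours that share the IL prefix, recurrent replicate 1 at 5.61 CPM lay below the primary range of 5.89 to 8.98 CPM, and the part of the prefix in the difference was not tested.

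SP6 differed by -0.80 (SE 0.46, edgeR adjusted p = 0.647), from 21.3 ± 3.40 to 12.3 ± 8.47 CPM (SD, n = 3 each). Recurrent replicate 3 set most of that difference, since without it the change was -0.37, and without recurrent replicate 1 it was -1.41 (adjusted p = 0.295). Recurrent replicate 1 lay within the primary range. The 2 tumours with the most KLF5, recurrent replicates 2 and 3, were also the 2 with the least SP6.

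**Figure D3:**
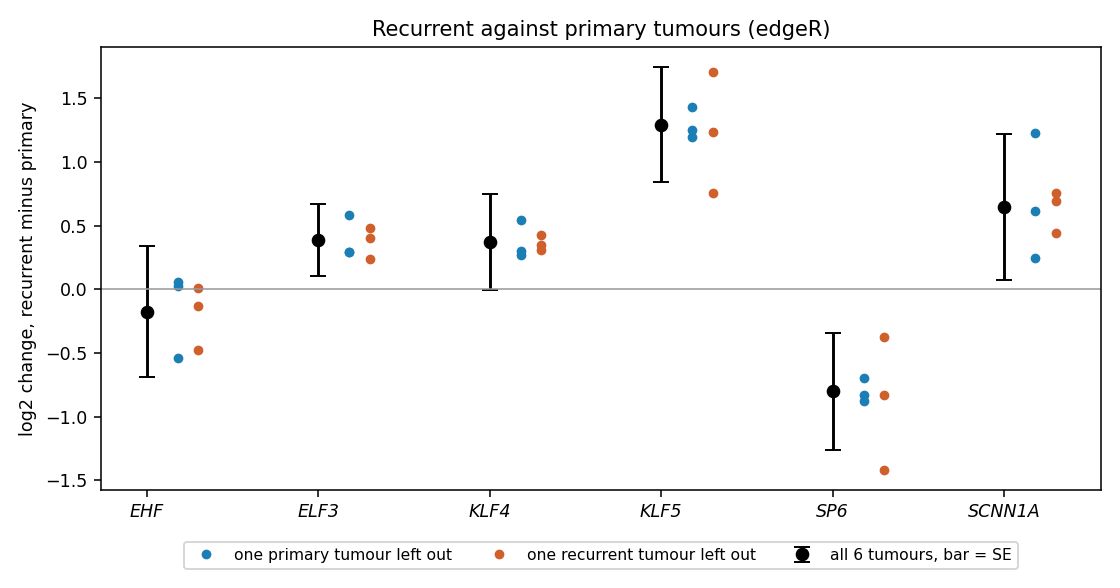
Log2 change of recurrent against primary tumours by edgeR for the 6 genes tested (black, bar is 1 SE, n = 3 tumours each) and with 1 tumour left out in turn (coloured points). KLF5 stays above 0 and SP6 below 0 in each case, while EHF changes sign.

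The other 4 genes moved less. Log2 changes were 0.65 (SE 0.58) for SCNN1A, 0.39 (SE 0.28) for ELF3, 0.37 (SE 0.38) for KLF4 and -0.18 (SE 0.52) for EHF, with edgeR adjusted p from 0.704 to 0.931. EHF turned to 0.05, 0.03 and 0.01 without primary replicate 1, primary replicate 2 and recurrent replicate 1. When each tumour's share of graft reads was added to the fit as a covariate, the 6 genes kept their directions and none was called.

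Of the fixed lists, no gene was called in this comparison. Among 7 tested epithelial factors 6 had positive log2 changes (median 0.76), and among 16 tested surface and junction genes 15 did (median 0.33), where 7812 of all 15928 genes tested were above 0. The tally was 4 of 7 for the repressors (median 0.00), 2 of 10 for the mesenchymal markers (median -0.33), 10 of 17 for the KLF and SP family (median 0.05), 2 of 6 for the sodium channel genes (median -0.04) and 3 of 7 for the EPCAM partners (median -0.02). GRHL1 stood at 1.01 ± 0.0211 CPM before and 2.22 ± 0.312 CPM after ablation (SD, n = 3 each), with a log2 change of 1.12 (SE 0.43, edgeR adjusted p = 0.572). CDH3, placental cadherin, a gene outside the naming rule given below, differed by 0.75 (SE 0.19, edgeR adjusted p = 0.430). The repressors ZEB1 and SNAI2 differed by -0.52 (SE 0.17) and -0.58 (SE 0.18), both with edgeR adjusted p = 0.521, and ZEB2 by 0.19 (SE 0.16). Of the mesenchymal markers, VIM differed by -0.33 (SE 0.13), TAGLN by -0.91 (SE 0.33) and CDH2 by -0.05 (SE 0.15).

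Correlation over the 6 tumours was taken for genes of the set with a mean count of 50 or more there. SCNN1A, GRHL2, OVOL2 and EPCAM fell short of that. Candidates were the 11044 protein-coding genes with a mean count of 100 or more. Those most like KLF5 were ZNF808, a zinc-finger gene, and DUSP5, a phosphatase of ERK kinases (Pearson r = 0.994 and 0.993). Those most like SP6 were DAP and FSCN1, the actin bundler fascin (r = 0.985 and 0.984). For KLF4 they were TOR4A and ZNF749 (0.992 and 0.991), for ELF3 FAM72B and SLC35A2 (0.983 and 0.979), and for EHF ZNF506 and NDUFAF4 (both 0.968). With 6 points and so many genes such values describe these tumours only. Between the genes themselves r was 0.764 for KLF4 with ELF3, 0.733 for KLF5 with ELF3 and 0.476 for KLF5 with KLF4. EHF gave 0.371 with KLF5, 0.275 with ELF3, 0.137 with KLF4 and -0.120 with SP6. SP6 gave -0.699 with ELF3, -0.637 with KLF5 and -0.180 with KLF4. All were computed on log2 CPM from the same libraries.

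The controls served as a background of host tissue, although control replicate 3 held 6414 CPM of the markers of the line. In edgeR on TMM-scaled totals, 2 of the 8 genes tested were called lower in tumours than in controls, where 4.86% of 16389 genes were called lower and 1.17% higher. GRHL2 had a log2 difference of -7.82 (SE 1.55, adjusted p = 0.0080) and EPCAM of -7.43 (SE 1.80, adjusted p = 0.0266). Both rested on control replicates 1 and 2. With DESeq2 GRHL2 kept its call (adjusted p = 0.000169) and EPCAM lost it (adjusted p = 0.0894). DESeq2 also called EHF (-3.48, adjusted p = 0.00342) and ELF3 (-1.83, adjusted p = 0.0406) lower. On library totals ELF3 went the other way, at 2.21 to 4.33 CPM in the controls and 3.87 to 7.34 CPM in the tumours. Without control replicate 1 edgeR called neither GRHL2 nor EPCAM, and without control replicate 2 or primary replicate 2 it called GRHL2 alone. Without both those controls the differences turned to 6.02 and 6.43, but the only control left, replicate 3, had no count of either gene. Without control replicate 3, edgeR called 4 of the 9 genes lower, and 1424 lower and 1524 higher of 17223 tested, with EHF at -4.11 (adjusted p = 0.00123) and ELF3 at -2.52 (adjusted p = 0.00692) joining them. The other 6 were not called by edgeR on all 9 libraries, and of these EHF, KLF5, SP6 and SCNN1A changed sign with a control left out. KLF5 had a log2 difference of 1.54 (SE 1.23, edgeR adjusted p = 0.498), which turned to -0.88 without control replicate 3 and to -0.25 with DESeq2. On library totals KLF5 was the 1 gene with all tumours above all controls, as for 51.2% of the genes tested (53.6% without overlap in either direction), but not on totals without structural and mitochondrial counts. Of the epithelial lists, ESRP1, CDH1, SPINT2 and KRT7 were also called lower in tumours, with log2 differences from -7.28 (CDH1) to -5.06 (KRT7). The repressors ZEB1, ZEB2 and TCF4 were called lower as well, at -1.30, -4.69 and -2.10. On library totals the groups overlapped for ZEB1 and TCF4, as for ESRP1, CDH1, SPINT2 and KRT7, but not for ZEB2. Control replicates 1 and 2 held 20 and 27 counts of ZEB1 and 67 and 83 of TCF4. On library totals both these controls stood below every tumour for each gene, opposite in direction to the calls. Only control replicate 3, with 345 counts of ZEB1 and 788 of TCF4, stood above every tumour.

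The 4 libraries with EPCAM counts also held other epithelial transcripts at or near 0 in the culture. Of the surface and junction list, 7 genes had at most 3 counts in the culture (CLDN3, RAB25, ST14, SPINT2, CRB3, MARVELD3 and MAL2), a choice made after the values were seen. Their counts summed to 123 in primary replicate 1, 75 in recurrent replicate 1, 11 in control replicate 1 and 64 in control replicate 2. They summed to 0 in primary replicates 2 and 3, to 2 and 7 in recurrent replicates 2 and 3, to 0 in control replicate 3 and to 6 in the culture. SPINT2, a protease inhibitor, had 50, 26, 4 and 31 counts in these 4 libraries, and ST14, a membrane protease, 35, 22, 6 and 13.

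**Figure D4:**
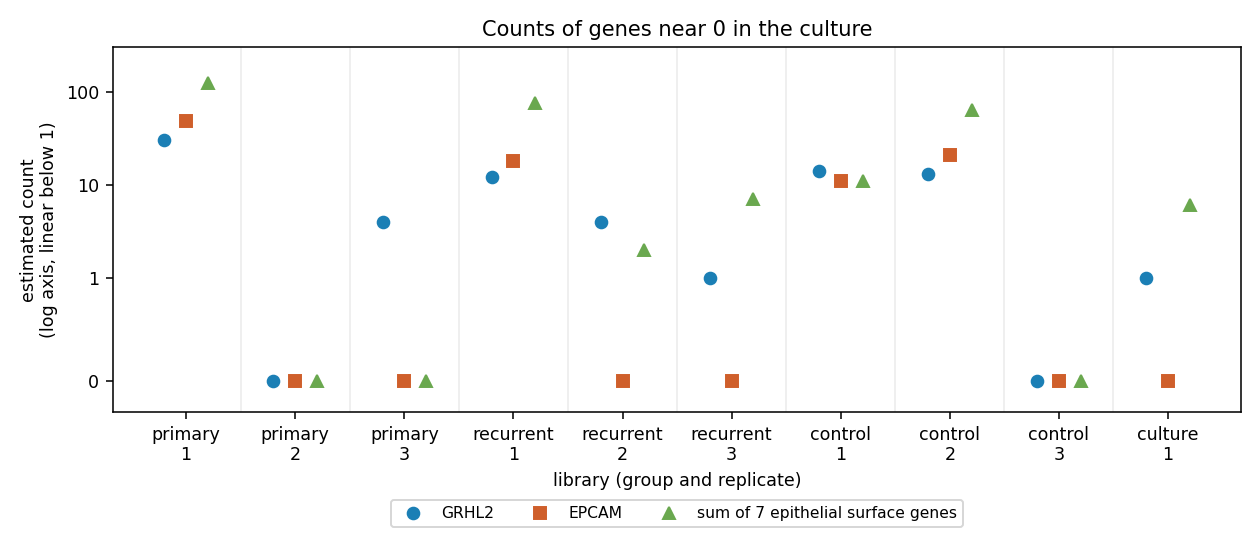
Estimated counts (log axis, linear below 1) of GRHL2, EPCAM and the sum of 7 epithelial surface genes in each of the 10 libraries. Primary replicate 1, recurrent replicate 1 and control replicates 1 and 2 hold 11 or more counts of each, while the other 6 libraries hold 0 EPCAM counts and at most 4 GRHL2 counts.

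The markers of other cell types gave the following values beside these counts. Of 13 epidermis markers, KRT1, KRT2, LORICRIN, DSC3, KRTDAP, DCD and CALML5 had at most 1 count in every library. The list summed to 33.7 to 75.5 CPM in primary and 48.0 to 215 CPM in recurrent tumours. It summed to 0 to 95.7 CPM in controls and to 48.6 CPM in the culture. Of 10 choroid plexus and ependyma markers, TTR and OTX2 had no count, with 3.79 to 25.2 CPM for the list in tumours, 0 to 4.33 CPM in controls and 44.5 CPM in the culture. DNAH11, an axonemal dynein, made up most of that sum, at a tumour median of 20.8 CPM and 43.4 CPM in the culture. Endothelial markers summed to 8.72 to 19.3 CPM in tumours and 0 to 10.1 CPM in controls, with CLDN5 at 0. The culture reached 9.67 CPM, within the tumour range. KDR was the largest part in tumours and culture, at a tumour median of 9.89 CPM and 5.32 CPM in the culture. The part of the cell types of these markers in the counts of GRHL2 and EPCAM was not tested.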

How the data were processed

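RNA was sequenced from 6 tumours, 3 control brains and 1 culture. Per the labels' protocols, total RNA went into stranded libraries depleted of ribosomal RNA. The authors deposited Salmon estimated counts (expected counts) per gene, unscaled between libraries. The submitters' processing notes name STAR, Salmon 1.10.3, DESeq2 and GRCh38, with no roles. Which annotation release was used is not given in these sources. Of 62754 gene IDs, 58261 matched GENCODE release 29, used for coordinates and lengths, and the release behind the table may be another.

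Counts were rounded and tested in R 4.3.3 with edgeR 4.0.16 (TMM totals, its default removal of low genes, two-sided quasi-likelihood F test). P-values were adjusted by Benjamini-Hochberg over all genes tested, with a threshold of 0.05, and the code was tested on simulated data. The SE is the log2 change divided by the square root of F. The culture was compared by CPM with no test: a gene passed at 4-fold above or below the tumour median. The gene background for it (10 or more counts in the culture or a tumour) and the offset of 0.1 CPM in correlations were set once the files had been seen. Alternatives were DESeq2 1.42.0, RLE scaling, no removal of low genes, the graft share as covariate, other denominators, a 2-fold mark and each tumour or control left out. Added after seeing the data were the joint removal of libraries with EPCAM counts and a minimum of 10 counts on the higher side of a culture call. The genes and lists were chosen with earlier results of these data known. Named by rule were the 9 genes, fixed partner genes, called list members and the 3 highest and 3 lowest culture ratios of a list. The rule also named the 2 genes most correlated with each of the 9 genes that had a mean tumour count of 50 or more. Candidates for these were protein-coding genes with a mean tumour count of 100 or more. CDH3 and some other list genes were named outside this rule. A fixed list member is not reported here, and list counts leave it out.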

Additional observations from a re-analysis of the deposited data

How the results depend on the processing

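No paired analysis was possible because the labels give no replicate numbers that groups share. For recurrent against primary tumours, edgeR called 0 of the 9 genes. Without removal of low genes it called 2 (KLF5, adjusted p = 1.29e-05, and SP6, adjusted p = 0.0103) and 411 over all genes. Leaving out 1 tumour gave 0 to 1 of the 9 genes (KLF5 without recurrent replicate 1) and 0 to 23 over all. DESeq2 gave 108 over all, the graft covariate 0, and the joint removal of primary replicate 1 and recurrent replicate 1 gave 1 of the 9 genes (KLF5, 1.85, adjusted p = 0.0429) and 25 over all. EHF ran from -0.54 to 0.055 with 1 tumour left out and turned to 0.25 with both removed.

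For tumours against controls, edgeR called 2 of the 9 genes and 987 over all, and with 1 library left out 0 to 4 and 522 to 2948. DESeq2 gave 3 of the 9 genes (GRHL2, EHF and ELF3) and 2225 over all, and no removal of low genes 1602. With 1 library left out, EHF ran from -4.11 to 0.70, KLF5 from -0.88 to 2.61, SP6 from -0.66 to 2.13 and SCNN1A from -3.51 to 8.13. KLF5 stood at -0.25 with DESeq2. Without control replicates 1 and 2 together, 0 of the 9 genes and 272 over all were called, with EHF at 1.69, GRHL2 at 6.02, SCNN1A at 8.32 and EPCAM at 6.43. The cause of these shifts was not tested.

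For the culture, 4 genes above and 2 below held under both other denominators, each tumour left out and the added minimum of 10 counts. The joint removal of primary replicate 1 and recurrent replicate 1 left 1 below, and a 2-fold mark gave 4485 above and 1807 below over all genes. SP6 ranked 3 in the tumours by median transcript length. Depth limits all 9 genes in the controls, which held at most 95 counts of any of them.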

Other observations

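Among the epidermis markers, FLG, the precursor of filaggrin, a protein of the outer skin layer, was high in the same 2 tumours as KLF5. It had 4763 counts in recurrent replicate 2 and 1869 in recurrent replicate 3, against 97 in recurrent replicate 1 and 66, 317 and 66 in the primary tumours. The edgeR log2 change was 3.94 (SE 1.097, adjusted p = 0.480), so the gene was not called, and the culture had 1786 counts. KRT5, a keratin of basal epidermis, was instead highest in primary replicate 2, with 713 counts against 20 to 186 in the other tumours, 216 in control replicate 3 and 0 in the culture. KRT14, its partner keratin, had 20 to 105 counts in the tumours, 110 in control replicate 3, 0 in the other controls and 11 in the culture. KRT14 was called lower in tumours than in controls by edgeR (-3.46, SE 0.65, adjusted p = 0.0055).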
